A study of Rattus norvegicus with 9 samples.

Results

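The genes described here encode the contractile apparatus of smooth muscle cells, measured in the prostates of rats with and without experimental benign prostatic hyperplasia (BPH). They are 39 rat genes, listed by symbol: the proteins of the thick and thin filaments, intermediate filaments, dense bodies and adhesion plaques, 3 integrins, proteins of caveolae and membrane junctions, and the transcriptional regulators Srf and Myocd. A probe was assigned to a gene through its RefSeq accession, and 36 of the 39 genes had a named probe. No named probe was found for Cnn2, Synpo2 and Pgm5. The probes of Pdlim3 and Cavin1 were not well above background on any of the 9 arrays. The other 34 genes were tested in each of the 3 comparisons, from a total of 19749 tested when BPH+ghrelin was compared to BPH.

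Smooth muscle contracts when calcium and calmodulin activate myosin light chain kinase (Mylk), which phosphorylates the regulatory light chain (Myl9) of smooth muscle myosin (Myh11). Myosin then pulls on thin filaments of actin and tropomyosin, which are anchored in dense bodies and, through adhesion plaques and integrins, in the extracellular matrix. In the prostate, smooth muscle makes up much of the stroma, and its tone contributes to urethral obstruction. Transcription of most of these genes depends on the serum response factor (Srf) and its coactivator myocardin (Myocd), which act through a short DNA motif, the CArG box.

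All animals were male Sprague Dawley rats, purchased at an age of 6 weeks. Rats of the sham group underwent a sham operation, received corn oil under the skin and were given the vehicle of ghrelin by mouth. In the BPH group, rats were castrated, injected with dihydrotestosterone (3 mg/kg daily for 4 weeks) and given the vehicle. Rats of the BPH+ghrelin group were castrated and injected in the same way and received rat ghrelin by gavage (20 nmol/kg daily) during the last 2 weeks. BPH and sham therefore differ by castration and dihydrotestosterone together, while BPH+ghrelin and BPH differ by ghrelin alone. Each group had 3 one-colour arrays with RNA from whole prostate tissue. Legends of the study describe the BPH and BPH+ghrelin arrays as prostates of different rats of a group, while the labels do not say which rat gave which array. A legend also gives another dose and route of ghrelin than the methods, which were followed here. In whole tissue, fewer smooth muscle cells and less RNA per cell cannot be told apart.

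Sham replicate 2 was the dimmest array (median raw signal 40.9, up to 133 on the others) and had the smallest share of probes well above background (61.4%, against 69.5% to 75.05%). Every group held an array that was intermediate to its other 2 arrays for most of 20113 genes: sham replicate 3 for 72.8%, BPH replicate 2 for 70.9% and BPH+ghrelin replicate 2 for 68.7%, compared to 9.99% to 17.7% for the remaining arrays. The same arrays lay between the others for 29, 25 and 27 of the 34 smooth muscle genes. The tests assume independent arrays, and counts of called smooth muscle genes are therefore also given without these 3 arrays. By the scan times in the headers, 1 scan held all BPH arrays together with BPH+ghrelin replicate 1, a second held sham replicates 1 and 2 next to the other BPH+ghrelin arrays, and the remaining array, sham replicate 3, was scanned separately. No scan held both BPH and sham arrays. The prostate genes Pbsn, Sbp, Hoxb13 and Krt18 were well above background on all 9 arrays, as were the smooth muscle genes Acta2, Actg2, Myh11, Tagln, Cnn1 and Des.

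Promoter windows were searched for the CArG box. RefSeq promoter windows of 300 bases (assembly GRCr8, 250 bases before to 50 bases after the start) were matched for 32 of the 39 genes, in 34 windows, while Myh11, Myl9, Tagln, Lmod1, Parva, Pdlim3 and Myocd had no window in the table. The search was for CC, 6 letters and GG, with only A or T in the middle (an exact box) or with at most 1 other letter there. The motif reads as a match on both strands, because its reverse complement has the same form. An exact box was found in 2 windows (5.88%), in Srf and Cnn2, compared to 1.64% of 33469 windows of all genes. Boxes with at most 1 other letter, exact ones included, were found in 5 windows (14.7%), in Acta2, Srf, Cnn2, Itga1 and Itga5, compared to 9.42% of all windows. The windows of Acta2 and Srf each held 2 boxes and are shown because one gene encodes the main actin of smooth muscle and the other the factor that binds such boxes. Both sequences are printed 5′ to 3′ on the strand of the gene with the boxes in capitals. The first lies at chr1:241172548-241172667 (minus strand), 164 to 45 bases before the start of Acta2, and the second at chr9:21923965-21924054 (plus strand), 111 to 22 bases before the start of Srf.
Acta2: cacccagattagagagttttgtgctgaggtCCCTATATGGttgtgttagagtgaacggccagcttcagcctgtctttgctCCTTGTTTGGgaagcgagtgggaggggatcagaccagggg
Srf: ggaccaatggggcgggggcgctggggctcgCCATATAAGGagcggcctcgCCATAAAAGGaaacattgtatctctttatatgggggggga
Both boxes of Acta2 have 1 other letter in the middle, whereas both boxes of Srf are exact. A match describes letters in this window and not binding, and no match says nothing about boxes elsewhere.

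**Figure D1:**
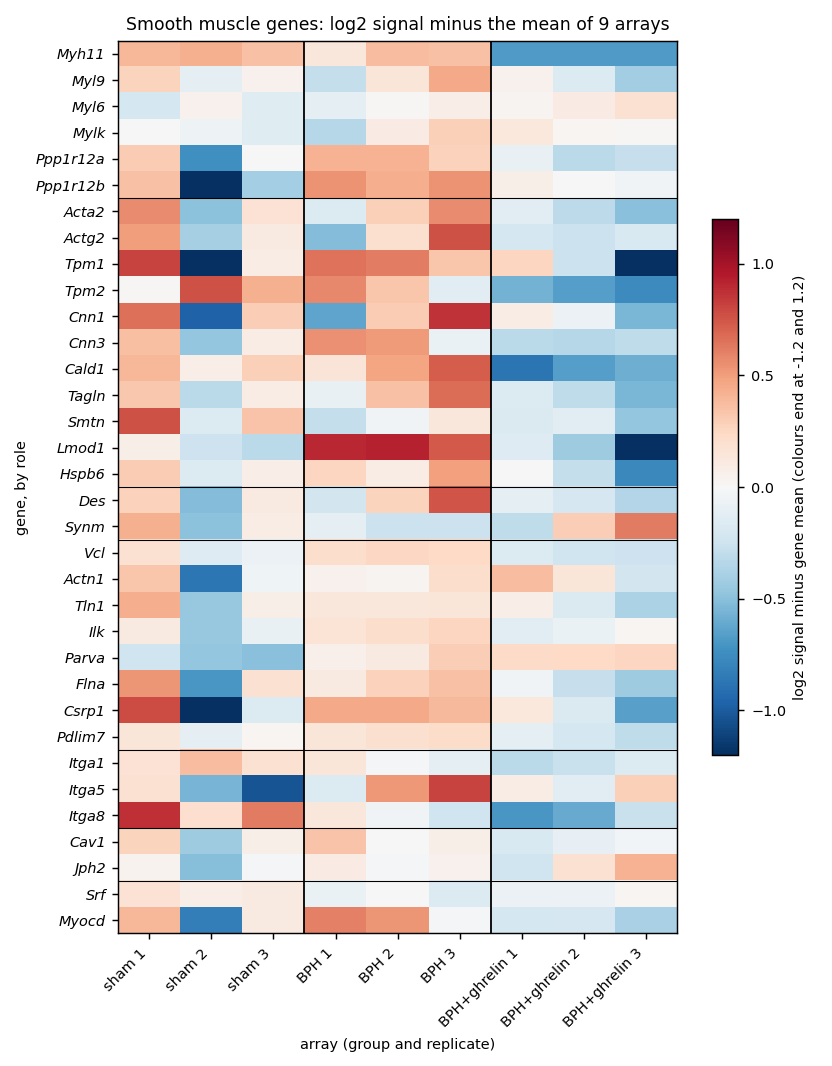
Log2 signal of each of the 34 tested genes on each of the 9 arrays, shown as the difference from the mean of the gene over the 9 arrays (colours end at -1.2 and 1.2). Genes are ordered by role (horizontal lines) and arrays by group (vertical lines); Myh11 is low on all 3 BPH+ghrelin arrays, and sham replicate 2 is the lowest of the 9 arrays for 15 genes.

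The first comparison asked which smooth muscle genes differ when ghrelin is added to castration and dihydrotestosterone. Most were lower with ghrelin: the mean of 27 of 34 genes was below that of BPH (48.3% of all genes tested), and 7 had a higher mean (51.7%). The median difference was -0.42 on the log2 scale, compared to 0.02 over all genes (-0.26 and 0.10 with scaling to the 75th percentile). Myh11 and Cald1 fell with an adjusted p under 0.05 in limma, as did 0.987% of all genes, and no smooth muscle gene rose by this test (0 of 34 with an adjusted p under 0.05, where 0.496% of all genes rose, and 0 with an unadjusted p under 0.05 and a higher mean, compared to 10.7% of all genes). An unadjusted p under 0.05 with a lower mean was found for 11 genes (10.5% of all genes). The 3 BPH+ghrelin arrays lay below the 3 BPH arrays without overlap for 20 genes (19.3% of all genes), and above them for 0 (19.8%). A difference of at least 2-fold was seen for Cald1 and Lmod1, both lower (3.21% of all genes), and for 0 genes in the other direction (2.9%).

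Among the thick filament genes, myosin heavy chain separated the groups. The log2 signal of Myh11, the motor protein of smooth muscle, was 11.45, 11.47 and 11.40 in sham, 11.18, 11.42 and 11.40 in BPH and 10.37, 10.37 and 10.37 in BPH+ghrelin. All ghrelin arrays were thus below all 6 others. The difference to BPH was -0.96 (standard error 0.11; 1.95-fold lower; adjusted p 0.0157 in limma). A dimmer probe of the same gene gave -0.90, again without overlap.

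The partners of myosin did not pass the adjusted test. Myl9, the regulatory light chain, had log2 signals of 9.98, 9.60 and 9.77 in sham, 9.43, 9.86 and 10.17 in BPH and 9.77, 9.55 and 9.30 in BPH+ghrelin. These ranges overlapped (difference -0.28, standard error 0.22, adjusted p 0.48). Mylk, which phosphorylates this light chain, was measured at 14.76, 14.70 and 14.62 in sham, 14.42, 14.86 and 15.05 in BPH and 14.89, 14.79 and 14.78 in BPH+ghrelin. For Mylk, BPH and BPH+ghrelin overlapped as well (difference 0.05, standard error 0.17, adjusted p 0.899). BPH+ghrelin lay above sham without overlap for this gene (difference 0.13, adjusted p 0.7 in limma). The difference of the essential light chain Myl6 between BPH+ghrelin and BPH was 0.11. Both regulatory subunits of myosin phosphatase, which removes the phosphate, were lower without overlap but did not pass the test: Ppp1r12a differed by -0.60 (adjusted p 0.211) and Ppp1r12b by -0.50 (adjusted p 0.485).

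Thin filament genes pointed in 1 direction. All 11 tested had a lower mean with ghrelin, with a median difference of -0.65; 7 did not overlap between the groups (19.3% of all genes), 6 had an unadjusted p under 0.05 (10.5%), and 1 passed the adjusted test (0.987%). This was Cald1 (caldesmon), an actin-binding inhibitor of the myosin ATPase, with log2 signals of 8.95, 8.63 and 8.84 in sham, 8.71, 9.03 and 9.28 in BPH and 7.68, 7.89 and 7.97 in BPH+ghrelin. No ghrelin array reached the other groups with this probe. The difference was -1.16 (standard error 0.18; 2.24-fold lower; adjusted p 0.0292), and -1.05 with a dimmer probe of the gene, on which BPH+ghrelin and sham overlapped (-0.73 between these groups).

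Lmod1, a leiomodin that nucleates actin filaments, had the widest difference of the 34 genes, on a dim probe. Its log2 signals were 4.25, 3.93 and 3.86 in sham, 5.09, 5.10 and 4.92 in BPH and 4.03, 3.75 and 2.70 in BPH+ghrelin, and 7 of 9 arrays had it well above background (2 in sham, 3 in BPH and 2 in BPH+ghrelin). BPH stood above both other groups, which overlapped. The difference of -1.54 (standard error 0.31, 2.91-fold lower) did not pass the threshold (adjusted p 0.0569). It passed with scaling to the 75th percentile (0.0448), in the deposited matrix (0.048) and with only the 6 arrays compared (0.0439).

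The tropomyosins, which lie along actin filaments, were both lower without overlap. Tpm2 was at 11.70, 12.45 and 12.11 in sham, 12.26, 12.02 and 11.56 in BPH and 11.12, 11.02 and 10.92 in BPH+ghrelin, a difference of -0.93 (standard error 0.23, adjusted p 0.0923). Tpm1 was at 13.87, 11.78 and 13.14 in sham, 13.71, 13.67 and 13.39 in BPH and 13.31, 12.80 and 11.82 in BPH+ghrelin. Its spread within sham and BPH+ghrelin was wide, and its difference of -0.95 had a standard error of 0.54 (adjusted p 0.346; -1.10 with its other probe).

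The actins themselves overlapped between the groups. Acta2 (smooth muscle alpha-actin) was at 13.25, 12.19 and 12.86 in sham, 12.52, 12.97 and 13.25 in BPH and 12.56, 12.37 and 12.18 in BPH+ghrelin. Actg2 (the gamma-actin of smooth muscle) was at 13.88, 12.98 and 13.48 in sham, 12.86, 13.57 and 14.14 in BPH and 13.17, 13.12 and 13.19 in BPH+ghrelin. Their differences were -0.55 (standard error 0.29, adjusted p 0.311) and -0.36 (standard error 0.33, adjusted p 0.556), with BPH replicate 1 close to the ghrelin arrays in both. When arrays were scaled to their 75th percentile, the difference of Acta2 was -0.25 and that of Actg2 was 0.01.

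The same held for calponin and smoothelin among the proteins that bind actin. Cnn1 (calponin), which damps actomyosin, was at 7.30, 5.67 and 6.93 in sham, 6.01, 6.94 and 7.51 in BPH and 6.73, 6.57 and 6.09 in BPH+ghrelin (difference -0.36, standard error 0.49, adjusted p 0.703). Smtn (smoothelin) was at 10.16, 9.23 and 9.73 in sham, 9.11, 9.35 and 9.53 in BPH and 9.22, 9.27 and 8.93 in BPH+ghrelin (difference -0.19, adjusted p 0.678), and its dimmer probe differed in the opposite direction (0.91). Tagln (transgelin), a widely used smooth muscle marker, was at 10.62, 9.97 and 10.39 in sham, 10.21, 10.65 and 10.97 in BPH and 10.13, 9.99 and 9.75 in BPH+ghrelin. Here all ghrelin arrays were below all BPH arrays, by a margin smaller than the spread in BPH (difference -0.65, standard error 0.24, adjusted p 0.179). Cnn3 (-0.65, adjusted p 0.183) and Hspb6, a small heat shock protein that binds actin regulators (-0.63, adjusted p 0.167), also did not overlap and did not pass. With scaling to the 75th percentile, the difference of Cnn3 was -0.24.

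**Figure D2:**
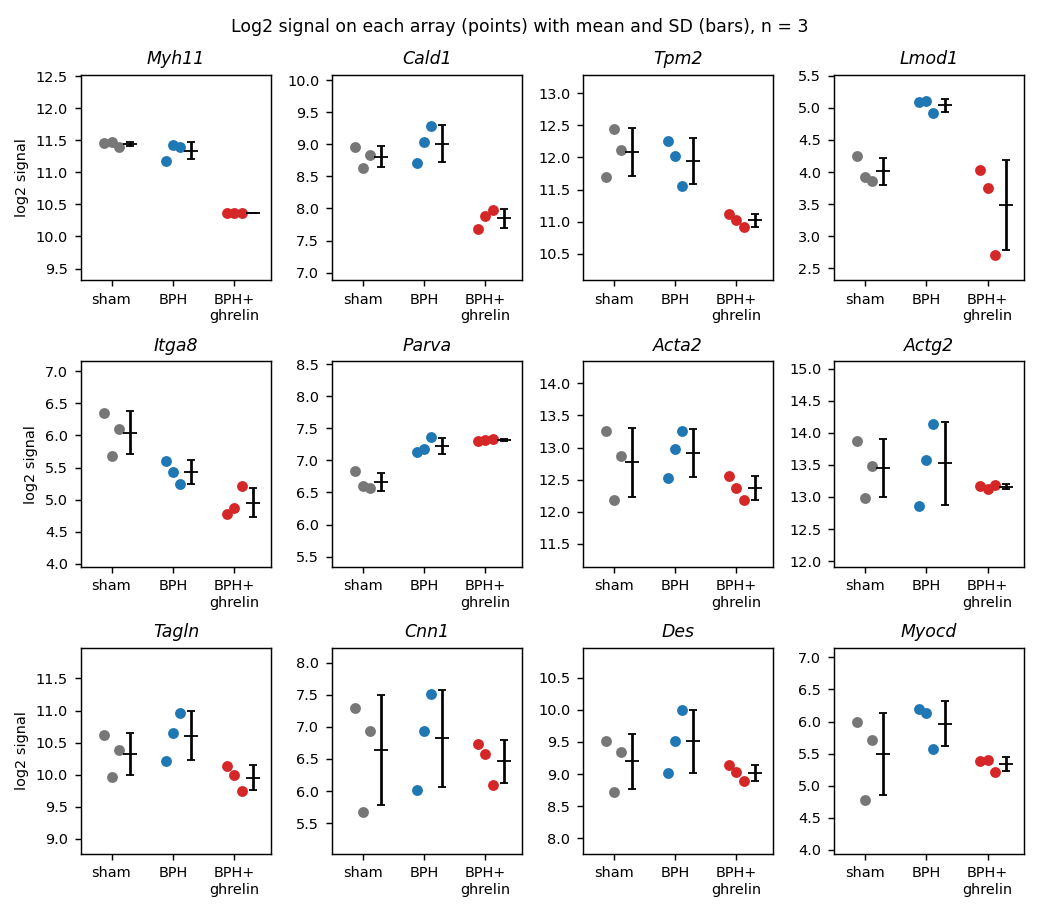
Log2 signal of 12 smooth muscle genes on each array (points; sham grey, BPH blue, BPH+ghrelin red), with the mean and SD of each group (bars, n = 3). All panels span the same number of log2 units; the 3 BPH+ghrelin arrays of Myh11 sit at 10.37, below all BPH and sham arrays, whereas the groups overlap for Acta2, Actg2, Cnn1 and Des.

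Genes of intermediate filaments, dense bodies and adhesion plaques did not pass the test. Des (desmin, the intermediate filament of muscle) was at 9.52, 8.72 and 9.35 in sham, 9.02, 9.51 and 10.00 in BPH and 9.14, 9.04 and 8.89 in BPH+ghrelin, with overlap (difference -0.49, adjusted p 0.354). Its partner Synm (synemin) had the largest positive difference of the 34 genes (0.41, standard error 0.29, adjusted p 0.434), with overlap. This difference ranged from 0.20 to 0.67 with 1 array left out. Of 8 tested genes of dense bodies and adhesion plaques, 6 were lower without overlap (19.3% of all genes), and 0 passed the adjusted test in limma (2 at an unadjusted p under 0.05, both lower, where 10.5% of all genes were). Vcl (vinculin), which couples actin to integrin complexes, differed by -0.45 (standard error 0.12, adjusted p 0.101), and Pdlim7, a scaffold on actin filaments, by -0.39 (standard error 0.12, adjusted p 0.122). The differences were -0.67 for Csrp1, -0.50 for Flna (filamin A), -0.30 for Tln1 (talin) and -0.27 for Ilk (integrin-linked kinase). Parva (alpha-parvin), which binds Ilk, differed by 0.09 and Actn1 (alpha-actinin) by 0.00.

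Integrin subunits and membrane proteins did not pass the test. Itga8 differed by -0.47 (adjusted p 0.235) and the collagen receptor subunit Itga1 by -0.26 (adjusted p 0.275), both without overlap, and the fibronectin receptor subunit Itga5 by -0.31 with overlap. Cav1, which forms caveolae, differed by -0.25 without overlap (0.02 with scaling to the 75th percentile), and Jph2 (junctophilin) by 0.07.

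The 2 transcriptional regulators had differences of opposite sign, and neither passed the test. Srf was at 11.68, 11.58 and 11.61 in sham, 11.42, 11.51 and 11.34 in BPH and 11.43, 11.43 and 11.53 in BPH+ghrelin, with a difference of 0.04 (standard error 0.11, adjusted p 0.867). Its coactivator Myocd was at 6.00, 4.77 and 5.71 in sham, 6.20, 6.13 and 5.57 in BPH and 5.39, 5.40 and 5.21 in BPH+ghrelin. The ghrelin arrays of Myocd were below the BPH arrays, but within the range of sham (difference -0.63, standard error 0.31, adjusted p 0.287). Srf carries both exact boxes shown above, and Acta2 the pair with 1 other letter each; neither gene passed the test.

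Leaving out single arrays removed calls of Myh11 and Cald1, and moved the differences of genes with a wide spread. Myh11 lost its adjusted p under 0.05 when either of BPH replicates 1 (0.0507) and 2 (0.134) or either of BPH+ghrelin replicates 2 (0.103) and 3 (0.0541) was left out, at differences of -1.05 to -0.93, and Cald1 kept it only without BPH replicate 3 (0.0438; 0.0599 to 0.163 otherwise), at differences of -1.31 to -1.03. The difference of Cnn1 ranged from -0.76 to -0.01, that of Actg2 from -0.70 to -0.06, that of Myl9 from -0.48 to -0.11, that of Des from -0.74 to -0.24 and that of Tpm1 from -1.28 to -0.53. Other settings added calls. Vcl (adjusted p 0.0375) and Pdlim7 (0.0399) passed in limma with normexp background correction. With only the 6 arrays compared, Vcl (0.0348), Tpm2 (0.0396), Ppp1r12a (0.0296) and the dim gene Ppp1r12b (0.0311) passed. Of all genes, 398 passed with normexp and 2106 with only the 6 arrays compared, where 293 did in the main fit. Without the 3 in-between arrays, the median of the 34 genes was -0.41 and the differences of Myh11 and Cald1 were -0.93 and -1.17, but 0 smooth muscle genes and 0 of all genes had an adjusted p under 0.05 in limma (3 and 832 at an unadjusted p under 0.05), with 2 arrays per group. Within the scan that held BPH+ghrelin replicate 1 and all BPH arrays, 29 of 34 genes were lower (50.1% of all genes), the median was -0.32, and the single ghrelin array was below all BPH arrays for 22 genes (33.7% of all genes) and above them for 1 (33.8%). Myh11 differed by -0.97 and Cald1 by -1.33 in this scan, and the same differences were obtained with scan as a block, where the adjusted p-values were 0.231 and 0.247.

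**Figure D3:**
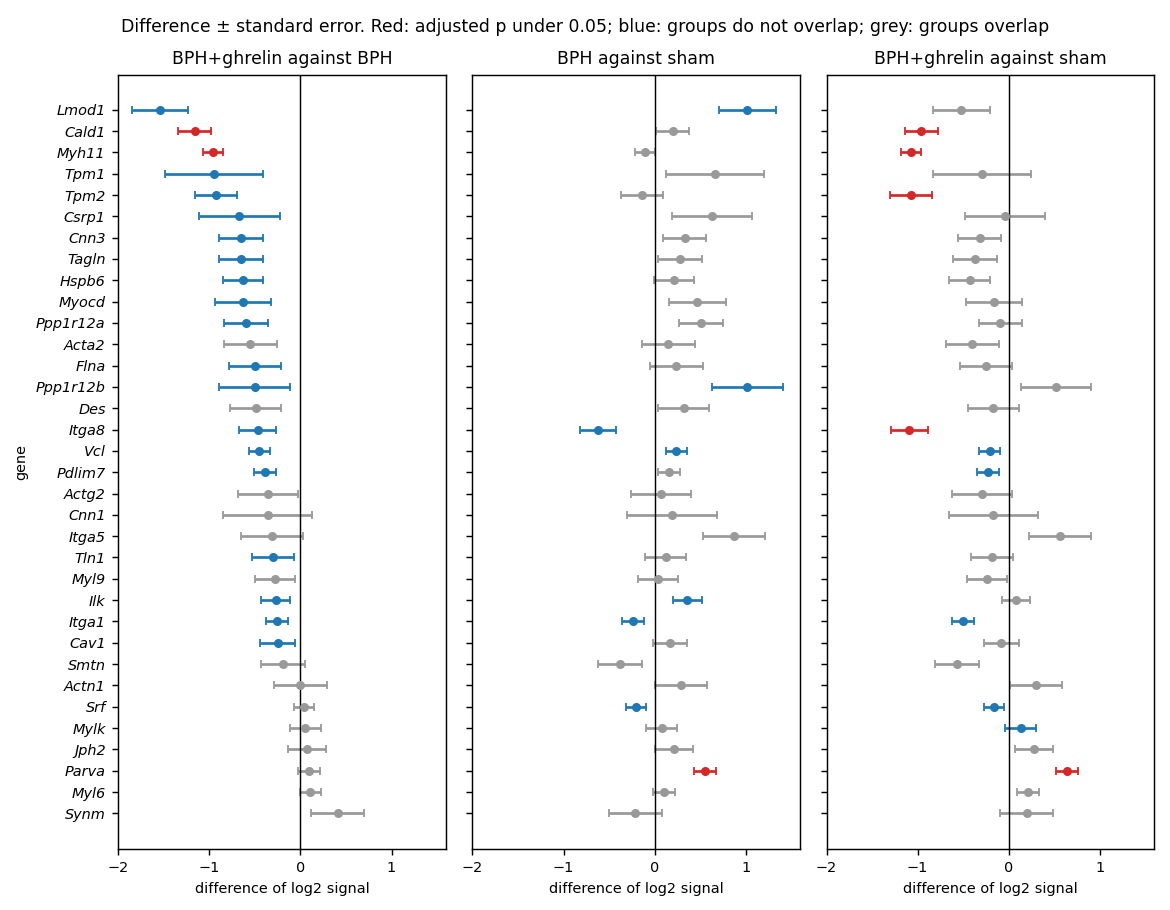
Difference of log2 signal with its standard error for the 34 genes in the 3 comparisons, in the order of the difference between BPH+ghrelin and BPH. Red marks an adjusted p under 0.05 in limma, blue groups that do not overlap and grey groups that overlap; Myh11 and Cald1 are red in both comparisons of BPH+ghrelin, and Parva in both comparisons with sham.

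The second comparison asked how castration with dihydrotestosterone alters the same genes, and shares its BPH arrays with the first. Differences between BPH and sham were mostly small and positive: 27 of 34 genes had a higher mean in BPH (53.7% of all genes) and 7 a lower one (46.3%), with a median of 0.20 compared to 0.04 over all genes. Parva rose with an adjusted p under 0.05 (2.16% of all genes rose), and 0 of the 34 genes fell by this test in limma (2.18% of all genes). At an unadjusted p under 0.05, 4 genes were higher (14.4% of all genes) and 1, Itga8, was lower (12%). BPH arrays lay above sham without overlap for 5 genes (17.1% of all genes) and below for 3 (14.2%). The 5 were Parva, Lmod1, Ppp1r12b, Vcl and Ilk, and the 3 were Itga8, Itga1 and Srf. A shift of the middle of all genes from 0.04 to -0.09 by scaling to the 75th percentile left 20 genes higher and 14 lower, at a median of 0.17.

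Parva, whose protein links Ilk to actin, was at 6.83, 6.60 and 6.57 in sham, 7.13, 7.18 and 7.36 in BPH and 7.30, 7.31 and 7.33 in BPH+ghrelin. Sham was below both other groups. The difference between BPH and sham was 0.55 (standard error 0.12, 1.47-fold higher, adjusted p 0.0469), close to the threshold: the adjusted p was 0.0618 to 0.181 when any array of the comparison other than sham replicate 1 was left out, and 0.0245 without that array. It was 0.0569 with scaling to the 75th percentile and 0.0659 with no filter on dim probes, and normexp background correction gave a difference of 0.31 (adjusted p 0.0832). Lmod1 (1.02, standard error 0.31, adjusted p 0.0973) and Ppp1r12b (1.02, standard error 0.39, adjusted p 0.15) were at least 2-fold higher in BPH (3.53% of all genes) and did not pass, and 0 genes were 2-fold lower (4.63%). The signals of Ppp1r12b were 3.38, 1.55 and 2.62 in sham, 3.57, 3.47 and 3.57 in BPH and 3.10, 3.03 and 2.99 in BPH+ghrelin. Only 1 sham array was well above background for this gene, and the sham mean rests on replicate 2. With 1 array left out, the difference of Ppp1r12b ranged from 0.53 to 1.45. With scan as a block, that of Lmod1 was 0.14.

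Myh11 and Cald1, the genes that fell with ghrelin, differed by -0.11 (standard error 0.11, adjusted p 0.552) and 0.20 (standard error 0.18, adjusted p 0.489) between BPH and sham. Values of further contractile genes, without Lmod1 given above, were 0.15 for Acta2, 0.07 for Actg2, 0.04 for Myl9, 0.08 for Mylk, 0.10 for Myl6, 0.28 for Tagln, 0.19 for Cnn1, 0.32 for Des, -0.38 for Smtn, -0.14 for Tpm2, 0.66 for Tpm1 and 0.47 for Myocd. Their standard errors ranged from 0.12 (Myl6) to 0.54 (Tpm1), and 0 of them passed in limma (0 at an unadjusted p under 0.05). Among the others, Itga5 differed by 0.87 (adjusted p 0.16; 1 sham array well above background), Csrp1 by 0.63, Ppp1r12a by 0.51, Ilk by 0.36 and Cnn3 by 0.33. Values of Actn1, Flna, Vcl, Hspb6, Jph2, Cav1, Pdlim7 and Tln1 lay between 0.12 (Tln1) and 0.29 (Actn1). Itga8 differed by -0.62 (adjusted p 0.114), Itga1 by -0.24, Synm by -0.21 and Srf by -0.20.

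These values leaned on single sham arrays. Sham replicate 2 was the lowest sham array for 26 of 34 genes and sham replicate 1 the highest for 30. With 1 array left out, differences ranged from 0.13 to 1.13 for Csrp1 and from 0.08 to 1.14 for Tpm1. The ranges were 0.11 to 0.73 for Myocd, 0.22 to 0.73 for Ppp1r12a and 0.10 to 0.54 for Cnn3. Without sham replicate 2 the median was 0.08, with 20 genes higher and 14 lower. Without sham replicate 1 it was 0.34, and 3 genes (Parva, Itga5 and Ppp1r12b) rose with an adjusted p under 0.05 in limma. In that fit 3082 of all genes passed, 1504 of them higher. Itga5 and Ppp1r12b were each well above background on 1 sham array. Without the in-between arrays the median was 0.28, and 0 of 34 genes and 3 of all genes passed in limma (0 and 1185 at an unadjusted p under 0.05). BPH and sham shared no scan, and a fit with scan as a block links them only through the BPH+ghrelin arrays. In that fit the median was 0.06, as over all genes (0.06), with 20 genes higher and 14 lower, and Parva differed by 0.53 (adjusted p 0.797).

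The third comparison set BPH+ghrelin against sham, and shares its arrays with both comparisons above. Of 34 genes, 25 were lower in BPH+ghrelin (45.5% of all genes) and 9 higher (54.4%), and the median was -0.19, compared to 0.04 over all genes. With an adjusted p under 0.05, 4 genes fell (3.3% of all genes fell) and 1 rose (2.99%). An unadjusted p under 0.05 was found for 6 lower genes (10.2%) and 1 higher gene (13.5%), and 3 genes were at least 2-fold lower (4.2%) and 0 higher (3.21%). Groups did not overlap for 8 genes lower (12.8%) and 2 higher (17.5%). All 11 thin filament genes had a lower mean than in sham, with a median of -0.40, and 2 of them passed the test.

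Myh11 had the smallest adjusted p of the 34 genes, with a difference of -1.07 (standard error 0.11, 2.10-fold lower, adjusted p 0.00245). It kept an adjusted p under 0.05 whichever of the 6 arrays was left out (0.00362 to 0.0215). The other genes that fell were Cald1 (-0.96, standard error 0.18, adjusted p 0.0214), Tpm2 (-1.07, standard error 0.23, adjusted p 0.0372) and Itga8 (-1.09, standard error 0.20, adjusted p 0.0229). Itga8, an integrin subunit of smooth muscle that binds matrix proteins, was at 6.35, 5.68 and 6.10 in sham, 5.61, 5.43 and 5.24 in BPH and 4.78, 4.87 and 5.21 in BPH+ghrelin. The groups descended from sham over BPH to BPH+ghrelin without overlap, and the neighbouring steps did not pass the adjusted test. Parva rose by 0.64 (standard error 0.12, 1.56-fold, adjusted p 0.0249). Normexp background correction gave smaller differences for Itga8 (-0.42, adjusted p 0.0373) and Parva (0.39, adjusted p 0.0415). Tpm2 did not pass with scaling to the 75th percentile (adjusted p 0.0599) or with no filter on dim probes (0.0591), and with only the 6 arrays compared neither Tpm2 (0.0503) nor Itga8 (0.0533) passed.

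Further genes stayed outside the threshold. Itga1 differed by -0.50 (adjusted p 0.0527; 0.0328 with normexp, 0.0426 with a filter on all 6 arrays), Smtn by -0.57 (adjusted p 0.195; 0.52 with its dimmer probe), Lmod1 by -0.52 (adjusted p 0.362) and Hspb6 by -0.43 (adjusted p 0.289). With 1 array left out, Smtn ranged from -0.80 to -0.34, Lmod1 from -0.80 to -0.12 and Hspb6 from -0.60 to -0.21. Differences of Acta2, Actg2, Tagln, Cnn1, Des, Myl9 and Mylk were -0.40, -0.29, -0.37, -0.17, -0.17, -0.24 and 0.13, and those of Srf and Myocd were -0.16 and -0.16. The remaining genes lay between -0.32 (Cnn3) and 0.56 (Itga5).

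Calls of Cald1, Itga8, Tpm2 and Parva were lost when sham replicate 3 or either of BPH+ghrelin replicates 1 and 2 was left out, and for Tpm2 and Parva also without the third ghrelin array, with adjusted p-values up to 0.0933, 0.107, 0.135 and 0.116. The median was 0.00 with 17 genes lower and 17 higher without sham replicate 1, and -0.42 without sham replicate 2. Without the in-between arrays, the median was -0.15, the difference of Myh11 was -1.10, and 0 of 34 genes and 2 of all genes passed in limma (4 and 1340 at an unadjusted p under 0.05). In the scan that held BPH+ghrelin replicates 2 and 3 and sham replicates 1 and 2, 24 of 34 genes were lower (44.1% of all genes), with a median of -0.26, and 11 did not overlap in this direction (17% of all genes) and 4 in the other (23.6%). Differences in this scan were -1.09 for Myh11, -0.86 for Cald1, -1.10 for Tpm2, -0.97 for Itga8 and 0.60 for Parva. The same values were obtained with scan as a block, with adjusted p-values of 0.069, 0.226, 0.252, 0.237 and 0.243.

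The 34 genes did not move as a unit over the arrays. Acta2, Actg2, Tagln, Cnn1, Des and Myl9 shared 1 order within groups: sham replicate 1 was the highest and sham replicate 2 the lowest of the sham arrays, and BPH replicate 3 was the highest and BPH replicate 1 the lowest of the BPH arrays. The difference between the outer BPH arrays was 1.28 for Actg2 and 1.50 for Cnn1, more than their difference between groups. Tpm2 had the opposite order in sham and BPH. Myh11, by contrast, spread over 0.07 in sham, 0.24 in BPH and 0.00 in BPH+ghrelin at 2 decimals.

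Other genes of contraction and anchoring, listed beside the 34, were lower with ghrelin in a similar share. Of 40 listed genes, 32 were tested in BPH+ghrelin against BPH; 25 had a lower mean, 16 were lower (19.3% of all genes) and 1 higher (19.8%) without overlap, and the median was -0.38 (0.02 over all genes). None passed the adjusted test in limma (0 of 32; 13 at an unadjusted p under 0.05, all lower, where 10.5% of all genes were; without the in-between arrays 0 and 3). Sgcd (delta-sarcoglycan) differed by -1.29 (adjusted p 0.0586), with 1 of 3 BPH+ghrelin arrays well above background. The next widest differences were -1.03 for Actb (beta-actin, adjusted p 0.0812) and -1.02 for Cav2 (caveolin, adjusted p 0.0906), and the smallest were 0.02 for Ppp1r12c and -0.02 for Itgb1, the integrin beta chain that pairs with all 3 integrin subunits described above. Itga7 (-0.98, adjusted p 0.167 in limma), counted as lower without overlap, was well above background on 3 BPH arrays and 1 BPH+ghrelin array. Between BPH and sham, Fermt2 (a kindlin that activates integrins) rose by 0.61 (adjusted p 0.0321) and Pdlim5 fell by 1.75 (adjusted p 0.0106). Pdlim5 was also lower in BPH+ghrelin than in sham (-1.78, adjusted p 0.00707), as was the caveolar protein Cavin3 (-0.48, adjusted p 0.0476). Without the in-between arrays none of these 3 genes passed in limma, with adjusted p-values of 0.709 for Fermt2, 0.686 and 0.48 for Pdlim5 and 0.762 for Cavin3, at differences of 0.65, -1.70, -1.72 and -0.50.

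Markers of several other cells of the prostate also had lower means with ghrelin. In BPH+ghrelin against BPH, 7 of 8 fibroblast markers had a lower mean (median -0.57), 6 of 6 pericyte markers (median -0.36), 4 of 5 endothelial markers (median -0.31) and 4 of 4 adipocyte markers (median -1.17, all with overlap). The endothelial marker Tek, one of those lower, passed the filter through the BPH arrays alone (3 well above background, 0 in BPH+ghrelin). With 1 array left out, the medians ranged from -0.57 to -0.45 for fibroblasts, from -0.54 to -0.24 for pericytes and from -0.51 to -0.20 for endothelium, while that of adipocytes was -0.06, with 2 of 4 markers lower, without BPH+ghrelin replicate 1. Of the 8 fibroblast markers, 5 were lower and 3 higher without BPH replicate 3, and likewise without BPH+ghrelin replicate 1. The matrix proteoglycan Lum (-1.65, adjusted p 0.024), the pericyte gene Rgs5 (-0.96, adjusted p 0.0296) and the leukocyte marker Ptprc (-0.82, adjusted p 0.037) fell. Their differences were -1.66, -0.93 and -0.80 without the in-between arrays, each with an adjusted p of 0.949. The log2 of the summed signal of the tested markers ranged from 14.25 to 14.86 in BPH and from 14.18 to 14.66 in BPH+ghrelin for fibroblasts, from 10.66 to 11 and from 10.51 to 10.88 for pericytes, and from 9.73 to 10.35 and from 9.61 to 9.83 for endothelium. Of 10 markers of the secretory epithelium, 7 were lower and 3 higher (median -0.16). Among 10 tested markers of striated muscle, 6 were lower and 4 higher (median -0.03; 0.17 without BPH replicate 3), and Myh4 was well above background on 0 of 9 arrays. The part of these cells in the values of the smooth muscle genes was not tested.

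In BPH against sham, 9 of 9 fibroblast markers had a higher mean, with a median of 0.39. The median was 0.16 without sham replicate 2 (7 of 9 higher), 0.62 without sham replicate 1 and 0.73 without BPH replicate 1. Thy1 was well above background on 1 sham and 2 BPH arrays. Fbln1, with the largest difference (1.74), was so on 2 sham and 3 BPH arrays, and lay at 0.6 on sham replicate 2. Of the 9 markers, 0 rose with an adjusted p under 0.05 in limma (2.16% of all genes) and 1 with an unadjusted p under 0.05 (14.4%). Of 10 striated muscle markers, 7 had a lower mean and 3 a higher one (median -0.54; -0.10 without BPH replicate 1 and -0.28 without sham replicate 1). Ckm, Mb and Tnni2 fell by 1.90, 0.94 and 1.37 (adjusted p 0.00451, 0.0321 and 0.00785), while the myosin heavy chain Myh2 was higher without overlap (0.42, adjusted p 0.223) and Acta1 differed by 0.54 (adjusted p 0.225). Myh7, the third with a higher mean, was not well above background on any sham array. By the same test, the secretory gene Pbsn fell by 2.65 (adjusted p 0.00191) and Krt8 rose by 0.96 (adjusted p 0.00909). Without the in-between arrays Ckm, Mb, Tnni2, Pbsn and Krt8 had adjusted p-values of 0.412, 0.709, 0.698, 0.369 and 0.709, at differences of -1.80, -0.96, -1.32, -2.69 and 0.97, and 0 fibroblast markers passed in limma (0 at an unadjusted p under 0.05). The adipocyte gene Adipoq ranged from 3.28 to 12.03 within sham and from 0.58 to 11.94 within BPH+ghrelin. The summed level of the striated muscle markers ranged from 11.83 to 12 in sham and from 10.66 to 11.93 in BPH, and that of the fibroblast markers from 13.67 to 14.55 in sham. The part of these cells in the difference between BPH and sham was likewise not tested.

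In BPH+ghrelin against sham, 6 of 6 pericyte markers (median -0.59), 4 of 4 endothelial markers (median -0.63), 5 of 5 immune markers (median -0.28) and 6 of 9 striated muscle markers (median -0.63) had a lower mean, whereas 5 of 8 fibroblast markers had a higher one (median 0.15; -0.31, with 6 of 8 lower, without sham replicate 2). The pericyte gene Kcnj8 fell by 1.01 (adjusted p 0.0322) and the endothelial gene Pecam1 by 0.62 (adjusted p 0.0434), with adjusted p-values of 0.675 and 0.745 without the in-between arrays. Among the fibroblast markers, Lum fell by 1.42 (adjusted p 0.0145 in limma, and 0.565 without the in-between arrays). Without overlap, 2 fibroblast markers were lower and 1 was higher. The summed level of endothelial markers ranged from 10.22 to 10.52 in sham and from 9.61 to 9.83 in BPH+ghrelin, that of striated muscle markers in BPH+ghrelin from 11.17 to 11.31, and that of pericyte markers from 10.73 to 10.87 in sham. Their part in the values of the smooth muscle genes was not tested in this comparison either.

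**Figure D4:**
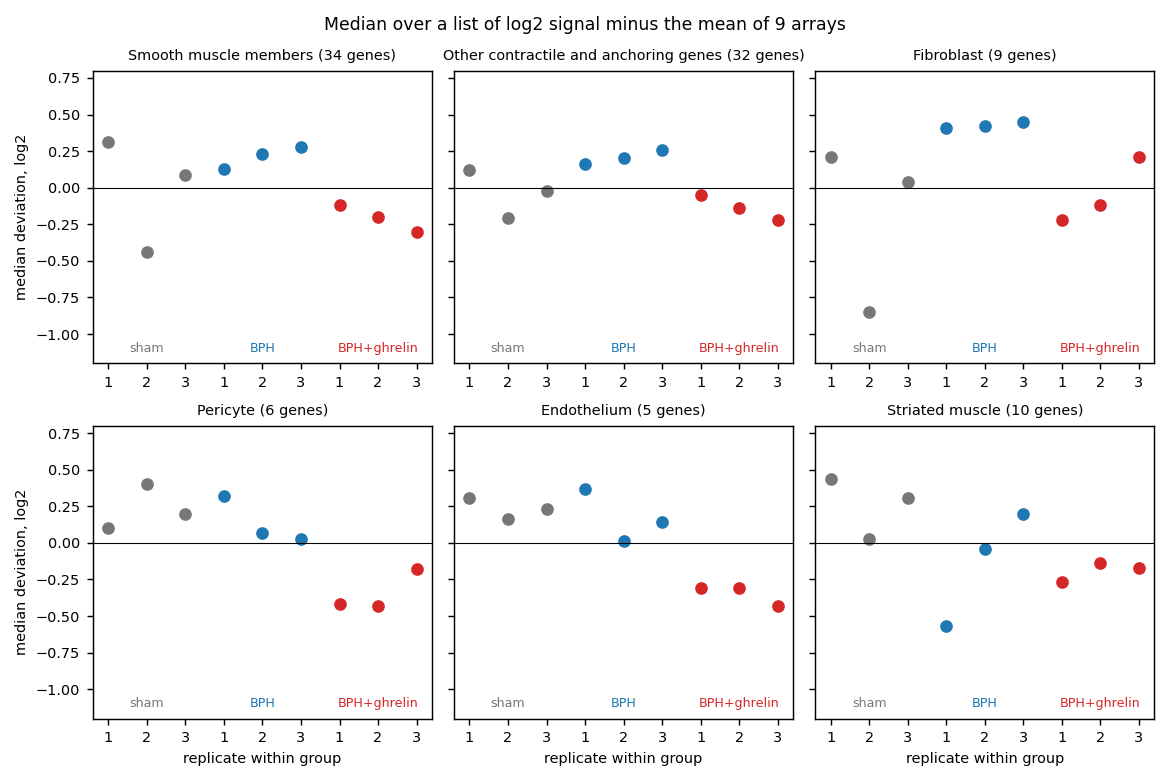
Median over a gene list of log2 signal minus the mean of 9 arrays, for each array (horizontal axis, replicate number within sham in grey, BPH in blue and BPH+ghrelin in red). The smooth muscle genes lie between 0.13 and 0.28 in BPH and between -0.30 and -0.12 in BPH+ghrelin, with sham from -0.44 to 0.31; pericyte and endothelial markers are lower on the BPH+ghrelin than on the BPH arrays as well.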

How the data were processed

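Gene expression in whole prostates was measured on 9 one-colour arrays (3 sham, 3 BPH, 3 BPH+ghrelin), grouped by their labels. The deposited intensities are scanner signals after background subtraction by the authors' scanner software (Feature Extraction 11.0.1.1, per the file headers), linear and not normalized between arrays. The authors also deposited a matrix of log2 values, quantile normalized in GeneSpring GX 12.1 per the methods, which was used only as an alternative (median of each column 5.251).

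Outlier spots (313 to 741 per array) were removed, log2 signals of the spots of a probe were averaged, and 30356 probes were quantile normalized over the 9 arrays, as in the study. Accessions were matched to RefSeq genes of assembly GRCr8 (17998 probes named, 59.3%). Probes had to be well above background on 3 or more of the 6 arrays of a comparison, and the brightest such probe (by its mean over 9 arrays) stood for its gene. One fit of 3 groups in limma 3.58.1 (R 4.3.3, lmFit and eBayes, 6 residual degrees of freedom) was adjusted by Benjamini-Hochberg over all genes of a comparison, and genes with an adjusted p under 0.05 were called. The study ran no test on its arrays. With 3 arrays per group, the smallest two-sided p of an exact permutation test is 0.1. The fit was tested on simulated data. The number of arrays limits the precision.

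The members, gene lists and marker lists were chosen with earlier results of these data known, and lists are described by counts and medians without a test. Every tested gene is named. Values on each array are given for called genes, for genes at least 2-fold apart without overlap and for a contractile core (Acta2, Actg2, Myh11, Myl9, Mylk, Cnn1, Tagln, Des, Smtn, Cald1, Tpm1, Tpm2, Lmod1, Myocd, Srf). Sequences came from RefSeq promoter windows, for which 32 of 39 genes matched. Marker lists not described above gave medians of -0.24 (basal epithelium), -0.40 (immune cells) and -0.14 (neural) in BPH+ghrelin against BPH.

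Alternatives were scaling to the 75th percentile, normexp background correction (offset 50, on median signals of spot and local background, because mean signals were not in the columns used here), no filter, detection required on all 6 arrays, 6 arrays normalized and fitted alone, averaging a gene's probes, blocks for replicate number or scan, the matrix of the authors, a trended robust eBayes, and each array left out. Within-scan values and the fit without the in-between arrays were added after seeing the data.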

Additional observations from a re-analysis of the deposited data

How the results depend on the processing

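The median difference of the 34 genes kept its direction under all alternatives run, except that it was 0.00 in BPH+ghrelin against sham without sham replicate 1. Apart from single arrays left out, it moved by over 1.5 times in BPH+ghrelin against BPH with scaling to the 75th percentile (-0.26, from -0.42). In BPH against sham it did so with scan as a block (0.06, from 0.20). With 1 array left out it ranged from -0.50 to -0.35 in BPH+ghrelin against BPH, from 0.08 to 0.34 in BPH against sham and from -0.42 to 0.00 in BPH+ghrelin against sham. Counts of called smooth muscle genes were less stable, and the cause was not tested. In BPH+ghrelin against BPH (2 genes) the count was 4 with normexp, 7 with only the 6 arrays compared, 0 with replicate block, 0 with scan as a block, 0 without the in-between arrays and 0 to 2 with 1 array left out. In BPH against sham (1 gene) it was 0 with scaling to the 75th percentile, normexp, no filter on dim probes, only the 6 arrays compared, replicate block, scan as a block or the in-between arrays dropped, and 0 to 3 with 1 array left out. In BPH+ghrelin against sham (5 genes) it was 3 with only the 6 arrays compared, 1 with replicate block, 0 with scan as a block, 0 without the in-between arrays and 1 to 6 with 1 array left out. Over all genes, the 293, 849 and 1207 calls of the 3 comparisons became 2106, 181 and 903 with only the 6 arrays compared, 20, 242 and 462 with replicate block, and 2, 2 and 85 with scan as a block. The labels do not say how the replicate numbers were given. Deviations from the group mean correlated from -0.128 to 0.254 over 9 pairs of arrays with the same number, 1 of them over 0.1. Myh11 in BPH+ghrelin against sham was the one smooth muscle gene called with the replicate block.

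Single genes changed sign. In BPH+ghrelin against BPH, scaling to the 75th percentile gave 0.01 for Actg2, -0.08 for Actn1 and 0.02 for Cav1, normexp 0.00 for Actn1, the in-between arrays dropped -0.05 for Actn1, scan as a block -0.29 for Jph2 and -0.10 for Synm, and the mean of the probes 0.36 for Smtn. In BPH against sham, scaling to the 75th percentile gave -0.04 for Acta2, -0.19 for Actg2, -0.01 for Cav1, -0.52 for Myl6, 0.00 for Myl9, -0.42 for Mylk and -0.02 for Tln1. Scan as a block gave -0.09 for Acta2, -0.04 for Actn1, -0.06 for Cnn1, -0.32 for Hspb6, -0.31 for Myl9, -0.05 for Mylk, 0.59 for Synm, -0.21 for Tln1 and -0.24 for Tpm1. In BPH+ghrelin against sham, scaling to the 75th percentile gave 0.01 for Cav1 and 0.02 for Csrp1, scan as a block 0.01 for Cav1, and the in-between arrays dropped 0.03 for Ppp1r12a. With 1 array left out, BPH+ghrelin against BPH ranged from -0.13 to 0.16 for Actn1, -0.08 to 0.25 for Jph2, -0.13 to 0.18 for Mylk and 0.00 to 0.08 for Srf. BPH against sham ranged from -0.13 to 0.39 for Acta2, -0.23 to 0.41 for Actg2, -0.04 to 0.56 for Actn1, -0.03 to 0.32 for Cav1, -0.30 to 0.59 for Cnn1, -0.11 to 0.51 for Flna, -0.14 to 0.24 for Myl9, -0.06 to 0.26 for Mylk, -0.11 to 0.33 for Tln1 and -0.33 to 0.05 for Tpm2. BPH+ghrelin against sham ranged from -0.04 to 0.56 for Actn1, -0.27 to 0.07 for Cav1, -0.66 to 0.16 for Cnn1, -0.54 to 0.46 for Csrp1, -0.61 to 0.01 for Flna, -0.07 to 0.21 for Ilk, -0.52 to 0.09 for Myocd, -0.39 to 0.13 for Ppp1r12a, -0.06 to 0.45 for Synm, -0.41 to 0.03 for Tln1 and -0.85 to 0.18 for Tpm1.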
